A study of Homo sapiens with 15 samples.

Results

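TGF-beta, activin and BMP signalling is followed here through 9 genes, TGFB1, TGFB2, TGFB3, TGFBR2, INHBA, GREM1, BMP4, BMP7 and SMAD7, out of 19684 genes in the deposited tables. The genes were chosen by name, as ligands, a receptor, an extracellular antagonist and an intracellular inhibitor of the pathway. A wider list of 99 pathway genes that includes them gives the setting. Both were drawn up with earlier results of these data known. RNA came from the BC1-GFP line of human induced pluripotent stem cells (hiPSCs), whose genotype is labelled WT, and from material derived from that line. Neural retina (NR) layers of retinal organoids were pooled from several organoids and taken at day 70 (D70-RO) and day 150 (D150-RO) after induction, and induced Müller glial cells (iMGCs) grown out of dissociated day 150 NR layers were taken on day 5 of passage 1 (P1-iMGC) and of passage 5 (P5-iMGC). Each of the 5 groups had 3 libraries, 15 in all. Because every group goes back to 1 line, the spread between libraries holds no difference between donors. The hiPSCs grew in mTeSR1 on Matrigel. The organoids floated in a medium with fetal bovine serum from the week after they were detached, in which the B27 supplement gave way to N2 between the 2 time points, and the iMGCs spread on Matrigel in DMEM with fetal bovine serum. Organoids and iMGCs thus shared serum, which the hiPSCs did not receive, while the step from D150-RO to P1-iMGC changed the substrate, the medium and the passage together, so their effects cannot be told apart. The sources differ on whether the hiPSC and organoid libraries stem from 3 or 2 independent experiments and do not say which libraries were prepared together, so p-values measure the spread between these libraries, which may be partly technical.

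Ligands of this family are secreted dimers that bring together type I and type II receptor kinases on the cell surface. TGF-beta, activin and nodal ligands lead to phosphorylation of SMAD2 and SMAD3, whereas BMPs act through SMAD1, SMAD5 and SMAD9, and both branches share SMAD4. TGF-beta is secreted in a latent complex that has to be opened, BMPs and activins are held off their receptors by extracellular antagonists, and inhibitory SMADs close the loop inside the cell. In the eye, BMP4 and BMP7 are known for their part in the patterning of the optic vesicle, TGFB2 is the main TGF-beta of the retina and vitreous, and TGF-beta is a known inducer of matrix and contractile genes in cultured glia and pigment epithelium.

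The 2 quantities used are FPKM, the authors' reads scaled by transcript length and mapped reads, which allows levels to be compared between genes, and the log2 fold change between 2 groups from expected counts, RSEM's estimates of the reads of a gene. A gene was tested in a comparison if 3 or more of the libraries in it reached an FPKM of 1, and it was called when edgeR's quasi-likelihood test gave a Benjamini-Hochberg adjusted p (hereafter edgeR adjusted p) under 0.05 together with a fold change of at least 2. Such a filter lets a gene pass through the group where it is high, so counts over the genes that passed describe the data and lend no support. TGFB1, TGFB2, TGFBR2 and SMAD7 were tested in 5 comparisons, TGFB3, INHBA and BMP7 in 4, BMP4 in 3 and GREM1 in 2. Expected counts summed to between 11349600 (D70-RO replicate 2) and 20398755 per library. In bulk RNA, fewer cells of a type and less RNA per cell cannot be told apart, which holds for every level given here.

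The cell labels were set against marker lists. The summed FPKM of 5 pluripotency markers lay between 3391 and 3510 in hiPSCs and at 17.0 or below in every other library. All 6 NR markers had a mean of at least 1 FPKM in both organoid stages, and in the iMGCs only PAX6 did, at 28.8 to 45.8, with RAX and CRX listed at 0 in the 6 libraries. Of 7 Müller glia markers, VIM and DKK3 stayed high in iMGCs. GLUL went from a mean of 100.2 FPKM in D150-ROs to 13.4 in P1-iMGCs, SOX9 from 42.6 to 5.21 and SLC1A3 from 28.0 to 0.373. RLBP1, the retinaldehyde-binding protein of mature Müller glia, was listed at 0 in P1-iMGCs and reached at most 0.09 in P5-iMGCs, and the water channel AQP4 was at 0 in both after 0.15 to 0.24 in D150-ROs. The 8 mesenchymal or fibroblast-type markers moved the other way, with a summed FPKM of 28.2 to 33.1 in D150-ROs, 4335 to 4625 in P1-iMGCs and 4659 to 4863 in P5-iMGCs, and each of the 8 had a mean of at least 1 in P1-iMGCs. Microglia markers summed to at most 0.94 and endothelial markers to at most 0.59 in iMGCs. D70-ROs differed among themselves in PAX2, an optic stalk gene, from 5.67 to 29.3, and held 82.9 to 133.1 FPKM of pigment epithelium markers, nearly all of it PMEL, a level that hiPSCs also had, at 119.6 to 137.9. The part that cell mixture played in the levels below was not tested.

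The sequences upstream of 4 members show how unlike their starts are. They are shown because TGFB1, TGFB2, INHBA and GREM1 were the members with the highest FPKM in iMGCs and rose there from D150-ROs. Short motifs were searched on both strands in the 250 bases before each start in RefSeq's GRCh38.p14 table, and each stretch stops before the annotated exons of its own gene. Capitals mark the matches. The motifs searched were the TATA box TATAAA, the CCAAT box CCAAT, the GC box GGGCGG, the E-box CACGTG, the AP-1 site TGACTCA, the SMAD palindrome GTCTAGAC and the SMAD half-site CAGAC, one copy of which shares 1 letter with the E-box of TGFB2. RefSeq's starts need not equal the gene ends of GENCODE given further on.
TGFB1, chr19:41353923-41354172, minus strand: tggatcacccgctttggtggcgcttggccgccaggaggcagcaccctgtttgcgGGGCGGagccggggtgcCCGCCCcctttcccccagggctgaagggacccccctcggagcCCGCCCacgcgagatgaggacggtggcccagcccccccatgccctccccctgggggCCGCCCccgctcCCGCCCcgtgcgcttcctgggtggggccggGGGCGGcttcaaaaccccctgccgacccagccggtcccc
TGFB2, chr1:218345086-218345335, plus strand: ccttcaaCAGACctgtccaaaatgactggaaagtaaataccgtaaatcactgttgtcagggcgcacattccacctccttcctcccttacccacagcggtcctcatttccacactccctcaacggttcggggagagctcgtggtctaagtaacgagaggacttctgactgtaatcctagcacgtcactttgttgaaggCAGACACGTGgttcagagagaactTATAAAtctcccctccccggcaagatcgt
INHBA, chr7:41703109-41703340, minus strand: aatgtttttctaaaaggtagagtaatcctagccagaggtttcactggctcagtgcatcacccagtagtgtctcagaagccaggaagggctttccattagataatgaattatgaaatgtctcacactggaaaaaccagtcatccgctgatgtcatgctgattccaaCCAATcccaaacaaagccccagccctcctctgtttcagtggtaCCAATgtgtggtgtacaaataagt
GREM1, chr15:32717754-32717973, plus strand: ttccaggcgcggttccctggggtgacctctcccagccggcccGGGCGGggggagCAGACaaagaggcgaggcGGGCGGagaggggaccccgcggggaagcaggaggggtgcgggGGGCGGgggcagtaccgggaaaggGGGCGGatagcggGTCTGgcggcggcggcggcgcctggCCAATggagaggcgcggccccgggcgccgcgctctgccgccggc
The TGFB1 stretch held 6 GC boxes and the GREM1 stretch 4, together with a CCAAT box and 2 half-sites, and both windows had a GC content of 76.8% against a median of 58.0% over all 35116 promoters. The INHBA window had 42.8% GC, with 2 CCAAT boxes in the stretch printed and a TATA box in the bases left off from the first annotated exon base of the gene on. TGFB2, at 50.4%, held 1 TATA box, 1 E-box and 2 half-sites. GC boxes were present in 42.6% of all promoters, CCAAT boxes in 32.0%, half-sites in 38.0%, TATA boxes in 10.7% and E-boxes in 6.34%. None of the 15 start sites listed for 8 members held the AP-1 site or the SMAD palindrome, which occur in 4.20% and 0.182% of all promoters. These matches describe letters in a window and say nothing about binding.

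TGFB1, the most widely expressed TGF-beta and a strong inducer of matrix genes, lies at chr19:41301587-41353911 on the minus strand (GENCODE 29, GRCh38, matched by gene identifier). The hiPSCs had an FPKM of 6.84, 7.23 and 6.98, the D70-ROs of 2.80, 2.74 and 1.74 and the D150-ROs of 6.05, 6.66 and 6.82. In iMGCs it reached 50.67, 51.81 and 51.35 at P1 and 45.12, 51.71 and 48.97 at P5. The order of levels ran from P1-iMGC through P5-iMGC, hiPSC and D150-RO to D70-RO, and only the 2 passages overlapped. TGFB1 fell by 1.68 ± 0.20 (SE, log2 scale) from hiPSCs to D70-ROs (edgeR adjusted p = 2.01e-05). It rose 2.31-fold from D70-ROs to D150-ROs, with a log2 fold change of 1.21 ± 0.20 (edgeR adjusted p = 5.04e-04), a call that was lost without D70-RO replicate 3, at a log2 fold change of 1.00, and in the test against a 2-fold change. In P1-iMGCs it stood 12.2-fold above D150-ROs (log2 3.61 ± 0.06, edgeR adjusted p = 2.48e-17). Of its exon bases, 215 also lie in exons of HNRNPUL1 on the other strand. Whether the counting used strand is not given in the sources used here.

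TGFB2, the TGF-beta of retina and vitreous, lies at chr1:218346235-218444619 on the plus strand. It was nearly silent in hiPSCs, at 0.33, 0.29 and 0.35 FPKM. The D70-ROs had 10.52, 19.29 and 9.08 and the D150-ROs 21.48, 23.56 and 21.44. The iMGCs stood far above, at 189.2, 182.0 and 183.7 at P1 and 165.8, 167.1 and 166.3 at P5. No 2 neighbouring groups overlapped, and D70-RO replicate 2 came closest to the D150-ROs. The rise from hiPSCs was 36.4-fold to D70-ROs (log2 5.18 ± 0.33, edgeR adjusted p = 1.10e-07) and 53.0-fold to D150-ROs (log2 5.73 ± 0.13, edgeR adjusted p = 3.35e-12). Between the organoid stages the log2 fold change of 0.55 ± 0.26 did not pass (edgeR adjusted p = 0.0817), and without D70-RO replicate 2 it was 0.97. P1-iMGCs stood 13.0-fold above D150-ROs (log2 3.70 ± 0.05, edgeR adjusted p = 5.91e-18). TGFB2 shares 1371 of its 5151 exon bases with TGFB2-OT1 on its own strand, so reads of the 2 genes could be split.

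TGFB3, the third TGF-beta, known from palate and heart development, lies at chr14:75958099-75982991 on the minus strand and was low throughout. In hiPSCs TGFB3 had an FPKM of 0.17, 0.19 and 0.21, followed by 0.92, 1.38 and 0.90 at day 70 and 3.23, 2.67 and 2.24 at day 150. The iMGCs had 2.42, 1.75 and 2.35 at P1 and 2.60, 1.59 and 2.17 at P5. The 3 highest groups, D150-RO, P1-iMGC and P5-iMGC, overlapped, and D70-ROs and then hiPSCs lay below them without overlap. It rose 12.0-fold from hiPSCs to D150-ROs (log2 3.59 ± 0.29, edgeR adjusted p = 1.29e-07) and 2.27-fold between the organoid stages (log2 1.18 ± 0.24, edgeR adjusted p = 0.00193). That second call was lost with limma on log2(FPKM + 1), at 0.84, and in the test against a 2-fold change. Against D150-ROs, the log2 fold change in P1-iMGCs was 0.32 ± 0.18 (edgeR adjusted p = 0.103), and its sign turned to -0.32 with library totals alone. TGFB3 shares 163 exon bases with TGFB3-AS1 on the other strand.

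**Figure D1:**
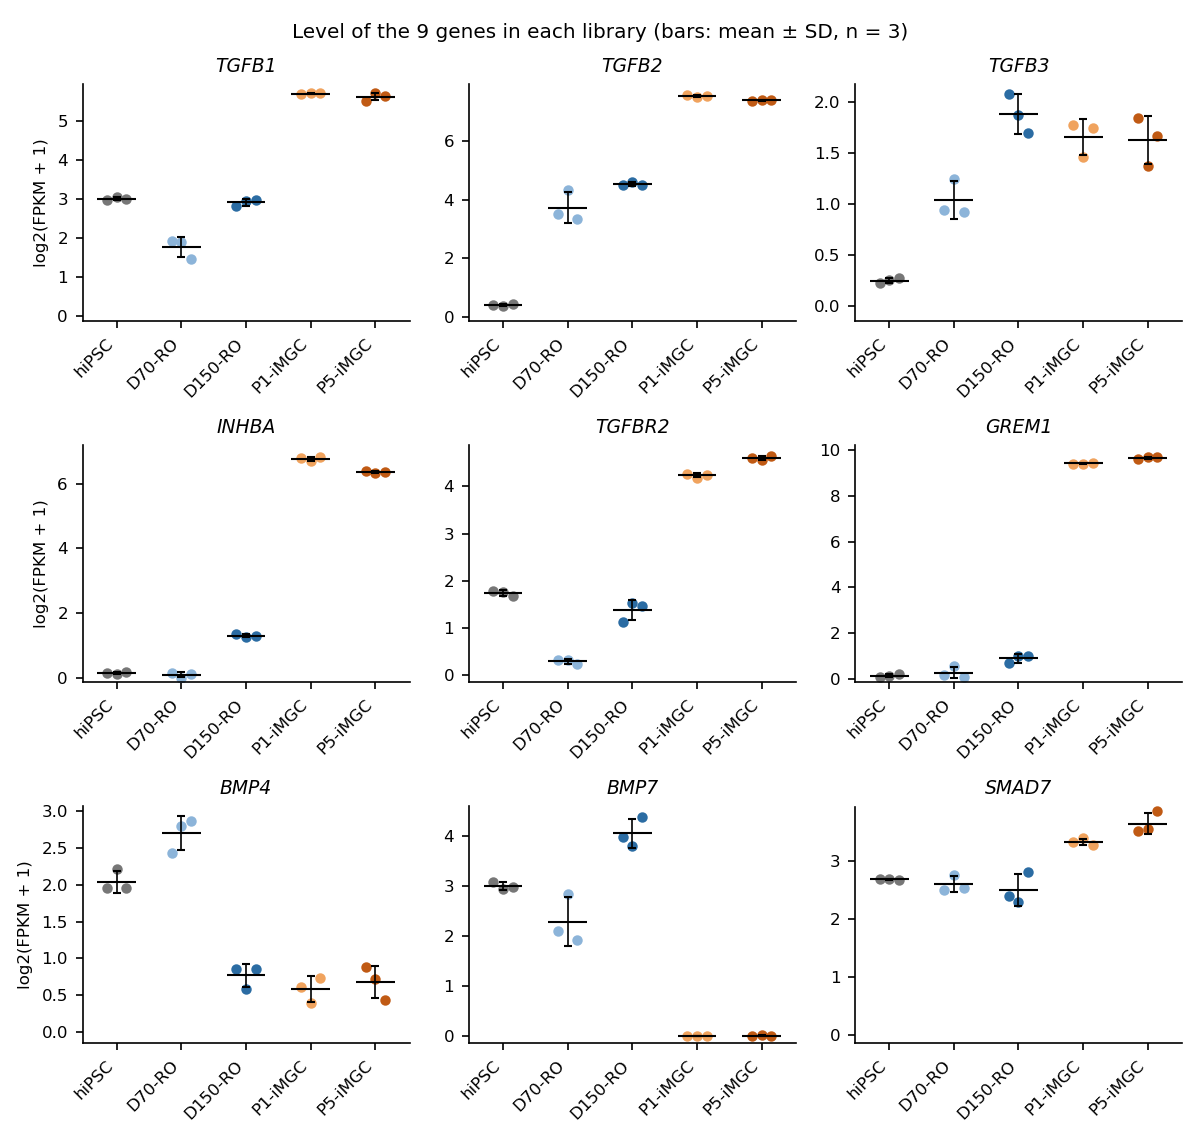
Level of each of the 9 genes as log2(FPKM + 1) on the vertical axis in the 5 groups, with a point for each library and a bar for the mean ± SD (n = 3). TGFB1, TGFB2, INHBA, TGFBR2 and GREM1 were highest in both iMGC groups, BMP7 was at or near 0 there, and BMP4 was highest in D70-ROs.

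The mix of the 3 TGF-beta ligands changed with them. TGFB1 held 93.2% ± 0.601 (SD, n = 3) of their summed FPKM in hiPSCs, where the sum was 7.53. TGFB2 held 77.9% ± 4.28 in D70-ROs, 70.6% ± 0.936 in D150-ROs, 77.6% ± 0.447 in P1-iMGCs and 76.7% ± 0.929 in P5-iMGCs. The sum itself was 16.5 ± 6.15 FPKM in D70-ROs, 31.4 ± 1.31 in D150-ROs, 238.4 ± 3.48 in P1-iMGCs and 217.2 ± 3.44 in P5-iMGCs. Thus the ligand in front differed between hiPSCs and the other 4 groups, with no overlap of the shares. The share of TGFB3 was 7.34% to 10.5% in D150-ROs and 0.743% to 0.999% in P1-iMGCs, without overlap.

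INHBA encodes the beta A subunit, 2 of which form activin A, and lies at chr7:41667168-41705834 on the minus strand. The hiPSCs had an FPKM of 0.10, 0.09 and 0.13 and the D70-ROs of 0.11, 0.00 and 0.07, which overlapped and rested on 26 and 11 reads over 3 libraries. D150-ROs had 1.53, 1.37 and 1.43. P1-iMGCs reached 110.4, 103.1 and 111.7 and P5-iMGCs 82.07, 79.15 and 81.37, without overlap between the passages. INHBA rose 14.5-fold from hiPSCs to D150-ROs (log2 3.86 ± 0.24, edgeR adjusted p = 1.20e-08). Against D70-ROs the rise was 4.97 ± 0.43 on the log2 scale (edgeR adjusted p = 1.10e-05), and 6.02 without D70-RO replicate 1, which held 8 of the 11 reads. From D150-ROs to P1-iMGCs it rose 123.0-fold (log2 6.94 ± 0.07, edgeR adjusted p = 1.77e-19).

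The other activin subunit gene measured, INHBB, encodes beta B. Like INHBA it was higher in D150-ROs, with log2 fold changes of 6.75 against hiPSCs and 2.04 against D70-ROs. The 2 genes already differed at day 70, where INHBB stood above hiPSCs and INHBA overlapped them, at a mean FPKM of 0.06 against 0.107. They differed again at the iMGC steps. The hiPSCs had an FPKM of 0.11, 0.03 and 0.06, the D70-ROs of 2.29, 1.70 and 2.00 and the D150-ROs of 9.33, 9.44 and 10.34, then 2.82, 3.00 and 3.84 in P1-iMGCs and 8.28, 8.53 and 7.87 in P5-iMGCs. Of the summed FPKM of INHBA and INHBB, INHBA held 13.0% ± 1.00 (SD, n = 3) in D150-ROs, 97.1% ± 0.418 in P1-iMGCs and 90.8% ± 0.459 in P5-iMGCs. The shares of the 3 groups did not overlap, so beta B led in the organoids and beta A in the iMGCs.

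**Figure D2:**
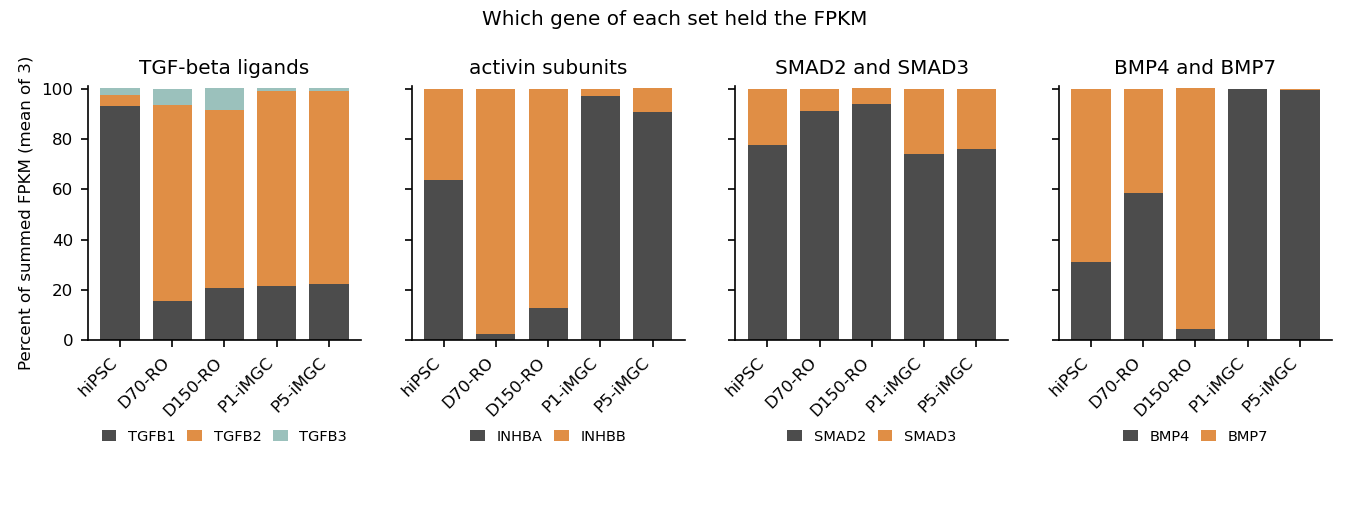
Percent of the summed FPKM (vertical axis, mean of 3 libraries) that each gene held in 4 small sets, by group. TGFB1 held 93.2% of the TGF-beta ligands in hiPSCs and TGFB2 70.6% to 77.9% elsewhere, and the activin subunits turned from 13.0% INHBA in D150-ROs to 97.1% in P1-iMGCs.

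TGFBR2, the type II receptor that binds TGF-beta and recruits TGFBR1, lies at chr3:30606502-30694142 on the plus strand. The hiPSCs had an FPKM of 2.45, 2.38 and 2.19, the D70-ROs of 0.26, 0.25 and 0.18 and the D150-ROs of 1.19, 1.88 and 1.76. It was 18.31, 17.20 and 18.03 in P1-iMGCs and 23.29, 22.65 and 24.02 in P5-iMGCs. All 5 groups stood apart, in the order P5-iMGC, P1-iMGC, hiPSC, D150-RO and D70-RO. TGFBR2 fell by 3.49 ± 0.23 on the log2 scale from hiPSCs to D70-ROs (edgeR adjusted p = 1.52e-07) and rose 6.00-fold from there to D150-ROs (log2 2.59 ± 0.28, edgeR adjusted p = 3.90e-05). In D150-ROs it was 1.86-fold below hiPSCs (log2 -0.90 ± 0.17), short of the 2-fold limit, which it passed without D150-RO replicate 2, at -1.02. In P1-iMGCs it was 17.2-fold above D150-ROs (log2 4.10 ± 0.10, edgeR adjusted p = 3.82e-15). Its partner TGFBR1, the type I kinase, varied less, with a mean FPKM of 9.39 at the hiPSC stage, 24.8 at day 70, 21.6 at day 150 and 31.1 at both passages. At day 70 the 2 receptor genes had thus moved in opposite directions from hiPSCs, TGFBR1 rising by 1.17 ± 0.15 on the log2 scale (edgeR adjusted p = 3.68e-05).

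GREM1 encodes gremlin 1, a secreted antagonist that binds BMP2, BMP4 and BMP7, and lies at chr15:32717974-32745107 on the plus strand. It was at or under 1.03 FPKM in every hiPSC and organoid library, where the hiPSCs had 0.06, 0.08 and 0.16, the D70-ROs 0.13, 0.46 and 0.06 and the D150-ROs 0.61, 0.99 and 1.03. In P1-iMGCs it stood at 678.3, 672.6 and 696.8 and in P5-iMGCs at 789.1, 823.7 and 836.3. hiPSCs and D70-ROs overlapped, and the other neighbours did not. GREM1 rose 1217-fold from D150-ROs to P1-iMGCs (log2 10.25 ± 0.12, edgeR adjusted p = 1.18e-18), with 181 reads over the D150-ROs and 146853 over the P1-iMGCs, and it passed the filter through the iMGCs alone. In the iMGCs it had the highest FPKM of the 9 genes. It shares 188 exon bases with AC090877.2 on the other strand.

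BMP4, a BMP of the dorsal optic vesicle, lies at chr14:53949736-53958761 on the minus strand and had its highest levels before day 150. Its FPKM was 2.88, 3.63 and 2.88 at the hiPSC stage and 4.40, 5.96 and 6.29 at day 70. D150-ROs had 0.82, 0.50 and 0.82, P1-iMGCs 0.53, 0.32 and 0.67 and P5-iMGCs 0.84, 0.65 and 0.36, and these 3 groups overlapped. BMP4 fell by 2.36 ± 0.24 on the log2 scale from hiPSCs to D150-ROs (edgeR adjusted p = 1.09e-06) and by 3.10 ± 0.24 from D70-ROs to D150-ROs (edgeR adjusted p = 6.12e-06). In D70-ROs it was 1.67-fold above hiPSCs (log2 0.74 ± 0.20, edgeR adjusted p = 0.00523), under the 2-fold limit.

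BMP7, which is known for its need in lens and eye formation, lies at chr20:57168748-57266629 on the minus strand. The hiPSCs had an FPKM of 7.50, 6.62 and 6.84, the D70-ROs of 3.28, 6.17 and 2.80 and the D150-ROs of 14.87, 12.83 and 19.69. In the iMGCs it was listed at 0 in every library but P5-iMGC replicate 2, at 0.01. BMP7 rose 3.42-fold from D70-ROs to D150-ROs (log2 1.77 ± 0.27, edgeR adjusted p = 3.51e-04). In D150-ROs it was 1.97-fold above hiPSCs (log2 0.98 ± 0.14), and this passed the 2-fold limit with library totals (1.34), with limma on FPKM (1.05 and 1.14) and without hiPSC replicate 1 (1.07), D150-RO replicate 1 (1.02) or D150-RO replicate 2 (1.09). In D70-ROs it was at a log2 fold change of -0.78 ± 0.26 against hiPSCs (edgeR adjusted p = 0.0169), and at -1.19 without D70-RO replicate 2, the highest of that group. From D150-ROs, with 2886 reads, to P1-iMGCs, with 0, it was at least 999.5-fold lower (edgeR adjusted p = 4.76e-12), taking 3 counts over the group as the limit that a count of 0 allows.

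BMP4 and BMP7 together summed to 10.1 ± 0.35 FPKM (SD, n = 3) at the hiPSC stage, 9.63 ± 2.27 at day 70 and 16.5 ± 3.66 at day 150, and to 0.507 ± 0.176 in P1-iMGCs and 0.62 ± 0.242 in P5-iMGCs. BMP4 held 58.5% ± 10.1 of the sum at day 70 and 4.33% ± 0.79 at day 150. BMP7 led in the 3 D150-ROs, whereas the D70-ROs had no single leader, with BMP4 at 57.3%, 49.1% and 69.2%. In P1-iMGCs the mean of their antagonist GREM1 was 682.6 FPKM against 0.507 for both ligands.

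SMAD7, the inhibitory SMAD that blocks and removes type I receptors and is itself induced by TGF-beta, lies at chr18:48919853-48952052 on the minus strand and varied least of the 9 by the ratio of its highest to its lowest group mean. In hiPSCs SMAD7 had an FPKM of 5.40, 5.42 and 5.35, followed by 4.63, 5.72 and 4.79 at day 70 and 4.23, 3.90 and 6.01 at day 150. The iMGCs had 8.95, 9.44 and 8.63 at P1 and 10.39, 10.73 and 13.44 at P5. The hiPSC and organoid groups overlapped, P1-iMGCs lay above them and P5-iMGCs above those. From D150-ROs to P1-iMGCs it rose 3.89-fold on the count scale (log2 1.96 ± 0.09, edgeR adjusted p = 8.42e-12), while mean FPKM rose 1.91-fold, and limma on FPKM gave 0.83 and 0.94, short of the limit. The ratio of its FPKM to its share of the library's counts (counts scaled to a fixed library total) was 0.37 ± 0.0873 (SD, n = 3) in D150-ROs and 0.282 ± 0.0138 in P1-iMGCs, so the length that the authors' FPKM assigned to the gene differed between libraries. In D150-ROs it was 1.88-fold below hiPSCs (log2 -0.91 ± 0.15), and passed the limit without hiPSC replicate 3, at -1.02.

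**Figure D3:**
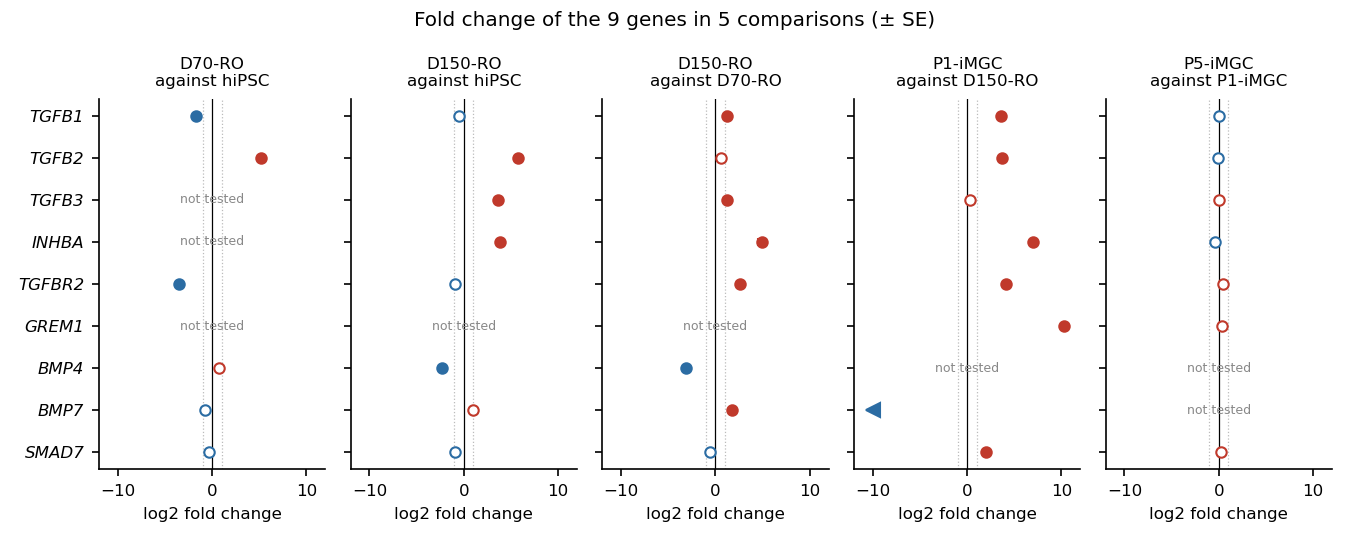
Log2 fold change (horizontal axis, ± SE) of the 9 genes in the 5 comparisons from expected counts, with filled points for called and open points for tested but not called genes, bars often hidden by the points, dotted lines at a 2-fold change and a triangle for the limit of BMP7, at least 999.5-fold lower in P1-iMGCs. GREM1, INHBA, TGFBR2, TGFB2 and TGFB1 rose from D150-ROs to P1-iMGCs, and no gene was called between the passages.

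The first question of the design, what changes as hiPSCs become day 70 NR, gave 3 calls among the 6 members tested, against 43.5% of the 12954 genes tested, 22.5% higher and 21.1% lower. TGFB2 was higher and TGFB1 and TGFBR2 lower, so the count stood near the background. The members' median log2 fold change was -0.57, beside 0.02 for all genes. Of the 99 listed pathway genes, 67 were tested, and 21 rose and 19 fell. The nodal branch made up most of the falls among the genes listed as ligands, with GDF3, NODAL and LEFTY1 lower, of which LEFTY1 inhibits nodal. NODAL, the ligand of pluripotent cells, dropped from a mean of 14.3 FPKM to 0.233 (log2 -6.27 ± 0.29). TDGF1, the co-receptor of nodal and a pluripotency marker, fell by 8.88 ± 0.26 on the log2 scale. GDF3, a further ligand of that branch, had 736 reads in hiPSCs and 2 in D70-ROs, a log2 ratio between -11.30 and -6.39 (95% counting interval). CER1, an antagonist of nodal and BMP, had 122 reads against 0 and was at least 33.6-fold lower.

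On the rising side of that comparison, BMPR1B, a type I BMP receptor, went from a mean of 0.24 to 5.56 FPKM (log2 5.13 ± 0.21), and SMAD9, which carries BMP signals, from 0.303 to 10.9. Of 5 listed TGF-beta target genes tested, 4 fell, CCN2, TGFBI, COL1A1 and FN1. Of 6 listed BMP targets tested, 3 rose, ID4, HEY1 and ATOH8, and none was called the other way in either list. PMEPA1, which TGF-beta also induces but which is listed among the intracellular regulators, went up from a mean of 11.3 to 24.8 FPKM. ATOH8, a helix-loop-helix factor induced by BMP, reached 23.8 FPKM in D70-ROs from 0.347 (log2 5.96 ± 0.19). The counts of both target lists were the same with upper-quartile factors, DESeq2, limma on FPKM and library totals.

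Between hiPSCs and D150-ROs, 4 of the 8 members tested were called, TGFB2, TGFB3 and INHBA higher and BMP4 lower, which is near or under the 58.8% of all 13344 genes that were called, 29.8% higher and 29.0% lower. The members' median was 0.25 beside -0.02 for all genes, and the split over all genes was 4867 higher and 3047 lower with library totals in place of 3977 and 3865. Of the wider list, 72 genes were tested, 28 rose and 17 fell. INHBB (log2 6.75 ± 0.24) and ITGB8, an integrin subunit that frees latent TGF-beta (5.81 ± 0.11), were among the genes other than the members that rose most. TDGF1 (-9.23 ± 0.17), GDF3 and NODAL (-6.28 ± 0.28) were among those that fell most. GDF3 had 1 read against 736, a log2 ratio between -14.53 and -6.74. This comparison shares the hiPSC libraries with the last and the D150-RO libraries with the next, so the 3 are not independent of each other.

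From D70-ROs to D150-ROs, the period in which photoreceptors and Müller glia mature in these organoids, 6 of the 8 members tested were called, TGFB1, TGFB3, INHBA, TGFBR2 and BMP7 higher and BMP4 lower, against 33.3% of all 12855 genes tested, 16.6% higher and 16.7% lower. Their median log2 fold change was 1.20, beside -0.01 for all genes. With library totals the split over all genes moved from 2131 higher and 2145 lower to 2781 and 1573, with limma on log2(FPKM + 1) to 2250 and 1302 and on log2(FPKM + 0.1) to 2816 and 1559. Among 65 genes of the wider list tested, 20 rose and 10 fell. TGF-beta targets rose, 4 of 6 tested and none lower. CCN2, a matricellular protein, went from 1.32, 0.90 and 0.92 FPKM to 17.96, 20.37 and 21.82 (log2 4.01 ± 0.17), against 20.06 to 23.8 in hiPSCs, where only replicate 1 of the D150-ROs lay below that range. FN1 and COL1A1 stayed lower in D150-ROs than in hiPSCs, at mean FPKM of 8.95 against 33.4 and 2.77 against 18.7. TGFBI (1.45 ± 0.23) and FN1 (1.16 ± 0.17) were also among the targets that rose between the organoid stages. THBS1, a matricellular activator of latent TGF-beta, rose by 3.14 ± 0.20 on the log2 scale. In hiPSCs, D70-ROs and D150-ROs the mean FPKM was 6.62, 1.78 and 6.13 for TGFBI and 3.41, 0.337 and 3.57 for THBS1.

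The BMP targets that were called went the other way between the stages, 3 of 6 tested lower and none called higher. ID3, an inhibitor of helix-loop-helix factors and an immediate target of BMP, fell from 142.8, 160.9 and 127.6 FPKM to 33.22, 39.79 and 41.67 (log2 -2.14 ± 0.13, edgeR adjusted p = 1.66e-06). ID2 and ATOH8 were the other 2. ID1, at mean FPKM of 77.2 and 62.7, was at a log2 fold change of -0.49 ± 0.10, under the limit. HEY1, also not called, went up instead, from 12.82, 14.69 and 13.87 FPKM to 25.96, 25.42 and 24.77, without overlap. NBL1, a BMP antagonist of the DAN family, fell by 2.67 ± 0.15 and BAMBI, a pseudoreceptor induced by BMP, by 2.13 ± 0.15 on the log2 scale. The counts of both target lists held with each scaling named above. The BMP ligands themselves rose in 5 of 6 cases tested, BMP2, BMP7, BMP8B, GDF10 and AMH, and BMP4 was the exception, while limma on log2(FPKM + 1) called 2 higher and upper-quartile factors 4.

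**Figure D4:**
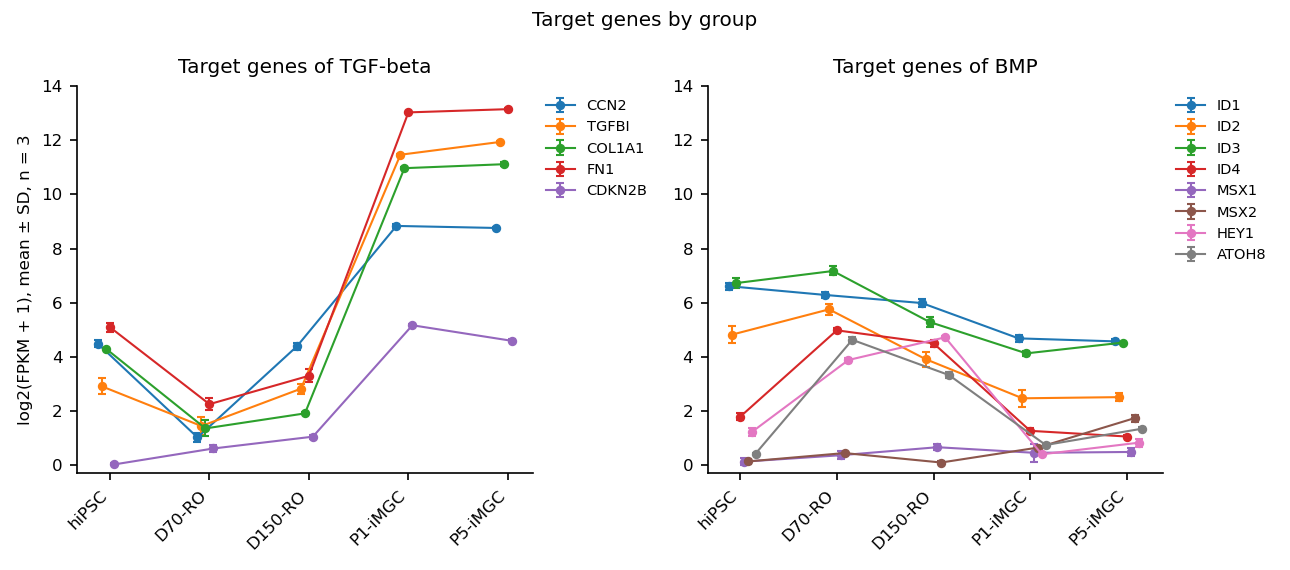
Level of the target genes of TGF-beta shown (left, 5 genes) and of BMP (right) in the 5 groups as log2(FPKM + 1), mean ± SD (n = 3). The 5 TGF-beta targets plotted were highest in iMGCs, where FN1 reached a mean of 8340 to 9061 FPKM. ID1, ID2, ID3, ID4, HEY1 and ATOH8 were lower in iMGCs than in D150-ROs. MSX2 was higher there, at a mean FPKM of 0.0733 in D150-ROs, 0.573 in P1-iMGCs and 2.35 in P5-iMGCs.

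From D150-ROs to P1-iMGCs, the step in which glia-labelled cells were grown out of the organoid retina, 7 of the 8 members tested were called, against 44.1% of 12896 genes tested, 20.0% higher and 24.1% lower. Their median log2 fold change was 3.66, beside -0.05 for all genes. The iMGC libraries used came from another table than the D150-ROs, and no label names a batch. Any batch difference and cell state cannot be told apart here, and levels on FPKM are set across 2 tables. GREM1, INHBA, TGFBR2, TGFB2, TGFB1 and SMAD7 were higher and BMP7 was lower. The median of all genes moved by -0.64 on the log2 scale with library totals and by -0.55 to -0.62 with limma on FPKM, and the split of 2581 higher and 3105 lower became 1507 and 5173, 1329 and 4478, and 1491 and 5070, so changes here are relative to that median. GREM1, INHBA, TGFBR2, TGFB2 and TGFB1 moved by far more than these shifts. With the P5 libraries in place of P1 the same number of members was called, 7, 6 of them higher. Beside these changes the summed FPKM of the mesenchymal markers was 4335 to 4625 against 28.2 to 33.1 and that of the NR markers 28.8 to 33.2 against 774.9 to 799.1, and the part of that shift in the members' changes was not tested.

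The wider list had 69 genes tested in this comparison, of which 31 rose and 22 fell, with 27 and 28 under library totals and 23 and 26 or 25 and 27 with limma on FPKM. Every TGF-beta target of the 6 listed, a list drawn up with earlier results of these data known, rose under each scaling run. Not every gene that TGF-beta induces did so. PMEPA1, listed among the intracellular regulators, went down from 34.82, 48.39 and 40.03 FPKM to 11.54, 14.35 and 12.57, while SMAD7 of the same role rose. FN1, fibronectin, went from 7.18, 10.33 and 9.35 FPKM to 8173, 8548 and 8298 (log2 10.49 ± 0.13, edgeR adjusted p = 1.31e-18). COL1A1, type I collagen, went from 2.68, 2.77 and 2.86 to 1946, 2053 and 2002 (log2 10.36 ± 0.08), and it is also on the mesenchymal marker list. TGFBI, a matrix protein named for its induction by TGF-beta, went from 5.15, 6.38 and 6.86 to 2762, 2919 and 2787 (log2 9.56 ± 0.08). CCN2 (5.15 ± 0.07) and the cell cycle inhibitor CDKN2B (5.62 ± 0.08) rose less. BMP targets fell in 4 of 6 cases tested, ID2, ID4, HEY1 and ATOH8, and in 6 of 6 with library totals or limma. None of those tested was higher. MSX1 and MSX2 did not pass the filter. MSX2 went from 0.06, 0.13 and 0.03 FPKM to 0.61, 0.62 and 0.49, while MSX1 overlapped between the groups. HEY1 dropped from a mean of 25.4 to 0.323 FPKM and ID4 from 21.7 to 1.42.

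Of 9 secreted antagonists tested, 7 rose and 2 fell, or 6 and 2 with limma. Besides GREM1, those that rose were NOG, CHRDL1, FST, FSTL3, NBL1 and TWSG1. CHRDL1, a chordin-like BMP antagonist, rose from 10.18, 11.32 and 9.87 FPKM to 74.03, 73.61 and 74.72 (log2 3.54 ± 0.06), and FSTL3, which binds activin, from 3.56, 4.79 and 3.29 to 46.24, 49.08 and 47.28 (log2 4.42 ± 0.08). SOSTDC1, a further BMP antagonist, was at least 33.2-fold lower, with 96 reads against 0. Of 7 BMP ligands tested 5 fell and GDF5 and GDF6 rose. GDF6 went from 0.31, 0.24 and 0.02 FPKM to 16.5, 18.15 and 17.11 (log2 7.95 ± 0.18) and thereby replaced BMP7 as the BMP ligand with the highest FPKM. BMP2 fell from a mean of 3.57 to 0.467, and BMP8B had 1 read in P1-iMGCs against 343, a log2 ratio between -13.79 and -5.99.

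Latency genes rose in 5 of 8 cases tested and fell in 1, under each scaling. ITGAV, the alpha V integrin subunit, went from 19.53, 19.82 and 19.42 FPKM to 190.2, 189.8 and 182.2 (log2 3.90 ± 0.05) and THBS1 from 2.72, 3.89 and 4.11 to 108.5, 108.4 and 108.7 (log2 5.55 ± 0.09). LTBP1, which stores latent TGF-beta in the matrix, rose by 3.63 ± 0.07 on the log2 scale, and ITGB8 fell by 1.47 ± 0.07. Among receptors 5 rose and 5 fell of 13 tested, but with upper-quartile factors, library totals or limma only 1 or 2 were higher. The effector SMADs shifted in mix. SMAD2 fell by 1.30 ± 0.04 on the log2 scale and SMAD3 rose by 1.38 ± 0.06, though limma on log2(FPKM + 0.1) gave 0.72 for SMAD3, short of the limit. Over the 13 SMADs and regulators, 3 rose and 3 fell, against 2 and 6 with library totals and 1 and 4 or 1 and 5 with limma. The share of SMAD2 in the summed FPKM of SMAD2 and SMAD3 was 94.0% ± 0.648 (SD, n = 3) in D150-ROs and 73.8% ± 1.12 in P1-iMGCs, without overlap. SMURF2, the ubiquitin ligase that works with SMAD7, went from a mean of 23.6 to 60.5 FPKM (log2 1.91 ± 0.05).

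**Figure D5:**
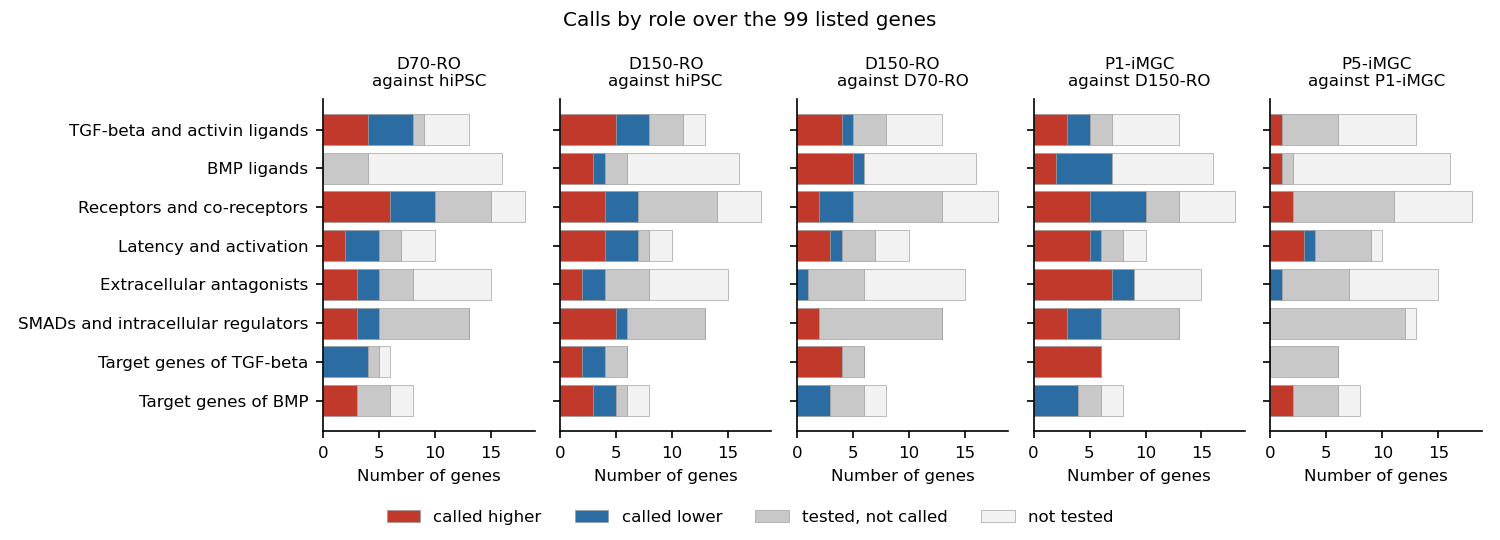
Number of genes (horizontal axis) of each role in the list of 99 that were called higher, called lower, tested without a call, or not tested, in the 5 comparisons. From D150-ROs to P1-iMGCs the 6 TGF-beta targets and 7 of 9 antagonists tested were higher, and 4 of 6 BMP targets tested were lower.

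Between P1-iMGCs and P5-iMGCs, which asks whether the cells hold their state through passaging, none of the 7 members tested was called by edgeR, against 2.92% of 11366 genes tested, 1.94% higher and 0.977% lower. DESeq2 and limma called none either. The changes of all 7 were under the 2-fold limit, and their median was 0.02 beside -0.00 for all genes. The share of all genes with an adjusted p under 0.05 at any fold change is not given here, so the adjusted p-values below have no background beside them. TGFBR2 was 1.36-fold higher at P5 (log2 0.45 ± 0.04, edgeR adjusted p = 2.30e-08) and GREM1 1.22-fold higher (log2 0.29 ± 0.03, edgeR adjusted p = 4.25e-07). SMAD7 was 1.13-fold higher (log2 0.18 ± 0.07, edgeR adjusted p = 0.0454). INHBA was 1.29-fold lower (-0.36 ± 0.04, edgeR adjusted p = 3.12e-08) and TGFB2 1.07-fold lower (log2 -0.09 ± 0.03, edgeR adjusted p = 0.048). TGFB1 (-0.01 ± 0.05, edgeR adjusted p = 0.923) and TGFB3 (0.02 ± 0.18, edgeR adjusted p = 0.94) were over 0.05 in adjusted p as well as under the 2-fold limit.

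Of 59 genes of the wider list tested between the passages, 9 rose and 2 fell, and with limma on log2(FPKM + 1) 5 and 2. ENG, endoglin, a co-receptor of TGF-beta, went from 1.17, 1.35 and 1.18 FPKM to 9.77, 10.26 and 8.55 (log2 3.01 ± 0.11, edgeR adjusted p = 2.53e-16). THBS1 went from 108.5, 108.4 and 108.7 to 312.7, 312.4 and 307.7 (log2 1.58 ± 0.03), and MSX2, a homeobox target of BMP, from 0.61, 0.62 and 0.49 to 2.07, 2.68 and 2.30 (log2 2.11 ± 0.22). NOG, noggin, fell from 2.44, 2.27 and 2.47 to 0.69, 1.11 and 0.35 (log2 -1.65 ± 0.26) and LTBP1 from 32.81, 35.1 and 32.28 to 10.86, 10.35 and 11.6 (log2 -1.47 ± 0.05). INHBB rose by 1.41 ± 0.10 on the log2 scale while INHBA was at -0.36 ± 0.04.

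Each member's closest pattern was sought by Pearson's r of log2(FPKM + 1) over 15 libraries among 13914 genes. The libraries fall into 5 groups of 3 and share the group, so these values describe the shape of the profile and carry no test. GREM1 was closest to RUNX2, SP100 and IGFBP7 (r = 0.999, 0.999 and 0.998) and INHBA to ANKRD1, ADAM12 and SRPX2 (0.999, 0.998 and 0.998), with 398 and 400 genes above 0.95. TGFB1 was closest to TPM1, ITGA3 and AXL (0.995, 0.994 and 0.994) and TGFBR2 to CYR61, EHD2 and TPM1 (0.996 each), with 289 and 292 genes above 0.95. TGFB2 was closest to TIMP2, CAPN2 and PRSS23 (0.995, 0.994 and 0.992). TGFB3 was closest to PIGG, to LTBP3, which binds latent TGF-beta, and to ZBTB47 (0.977, 0.973 and 0.971). BMP4 was closest to CLDN11, FGF19 and APH1A (0.988, 0.988 and 0.981), BMP7 to FAM120AOS, SLC25A29 and AKAP17A (0.993, 0.993 and 0.992) and SMAD7 to DRAM1, SUMF1 and EXT2 (0.966, 0.961 and 0.961), with only 24 genes above 0.95 for SMAD7. Among the members themselves GREM1 and INHBA (r = 0.994) and TGFB1 and TGFBR2 (0.993) were most alike and GREM1 and BMP7 most opposed (-0.910).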

How the data were processed

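Poly(A) RNA of 15 libraries was sequenced in paired ends. The authors aligned reads with HISAT2, assembled transcripts with StringTie, quantified genes with RSEM and tested with DESeq2, with versions, genome build, annotation and strandedness not given in the sources used here. The deposited tables hold expected counts per gene (RSEM estimates, not normalized), which were rounded to whole numbers here, and the authors' FPKM per gene. One table holds hiPSCs and organoids and another the iMGCs, and the D150-RO to P1-iMGC comparison joined their counts. Another 6 iMGC columns, in a further table whose name also lists D150-ROs, name no passage and were not used. Groups came from the labels. Gene positions and exons are from GENCODE 29, matched by identifier for 19684 genes.

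Counts were tested with edgeR 4.0.16 in R 4.3.3 (TMM factors, quasi-likelihood test, the 2 groups of a comparison, Benjamini-Hochberg over all genes tested), after a filter of FPKM of at least 1 in at least 3 libraries. Calls needed an adjusted p under 0.05 and a log2 fold change of at least 1 in size. The script was tested on simulated data. Alternatives were no filter, upper-quartile factors, DESeq2 1.42.0, limma 3.58.1 on log2(FPKM + 1) and log2(FPKM + 0.1), all 15 libraries in 1 fit, a test against a 2-fold change, a replicate block, each library left out and other iMGC libraries. Library totals alone were added after seeing the data. Deviations of same-numbered libraries correlated between -0.079 and 0.350, so the numbers were not taken to pair them. Counting intervals and limits cover counting error only. Exact tests of 3 against 3 libraries cannot go below p = 0.1 and were not used.

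The 9 members, the 99 genes and the marker lists were chosen with earlier results of these data known. The text names every member, up to 2 genes per role with the highest mean FPKM, in each comparison up to 3 called genes that rose most and 3 that fell most, and the 3 genes most alike to each member. Other genes were named after their values were seen. Some genes that this rule names are not reported here.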

Additional observations from a re-analysis of the deposited data

How the results depend on the processing

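Counts of calls stayed within 1.5 times the main count in 135 of 141 combinations of count and setting and in all 90 that left out 1 library. The exceptions were 2830 genes between the organoid stages in the test against a 2-fold change, and between the passages 694 genes without the filter, 152 with limma on log2(FPKM + 1) and 161 in the test against a 2-fold change in place of 332, with 7 pathway genes in place of 11 under each of the last 2 settings. Without 1 library, members called ranged from 3 to 4, 4 to 6, 5 to 6, 7 to 7 and 0 to 0 over the 5 comparisons in the order of the text. TGFB3 turned sign between D150-RO and P1-iMGC to -0.22 and -0.31 with limma and -0.32 with library totals, and between the passages to -0.03, -0.05 and -0.03. Without 1 library it ranged from -0.14 to 0.19 between the passages, and TGFB1 from -0.07 to 0.06, P1-iMGC replicate 2 and P5-iMGC replicate 1 deciding both signs. The cause was not tested. With the replicate number as a block the members called were 3, 4, 6, 7 and 0, as in the main fit. The genes called were then 5662, 7845, 4317, 5691 and 333. From hiPSCs to D150-ROs, limma on FPKM and library totals called 4 members higher in place of 3. Between the organoid stages, limma on log2(FPKM + 1) called 4 higher in place of 5. From D150-ROs to P1-iMGCs, both limma settings called 5 higher in place of 6. Depth limits BMP4, TGFB3, and INHBA and GREM1 outside the iMGCs, which rest on few reads. With 1 cell line and 3 libraries a group, values say nothing about other donors.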
